A study of Homo sapiens with 12 samples.

Results

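Laminin-332 is the adhesive protein of the basement membrane under stratified and basal epithelia, and the hemidesmosome is the junction that holds the cell to it. Outside the cell, laminin-332 is bound by the integrin formed of the alpha6 and beta4 chains, with collagen XVII beside it in the membrane. Inside the cell, the plakins plectin and BP230 tie that membrane complex to keratin filaments. The account covers 8 genes of this structure: the laminin chain genes LAMA3 and LAMB3, the membrane protein genes COL17A1, ITGA6, ITGB4 and CD151, and the plakin genes PLEC and DST. They were chosen by gene name, for their place in the structure, with earlier results of these data known. The transcripts of each gene were summed. All 8 were found among the 13407 genes of the first of 2 deposited tables and among the 11504 genes of the second, with 72 and 48 of their transcripts listed.

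The libraries came from MCF-12A, an established non-tumour epithelial cell line from human breast, which is 1 line and carries no other genotype or agent in the labels. There were 6 libraries of cells given TGFbeta1, a secreted cytokine used to push epithelial cells towards a mesenchymal state, and 6 of control cells, which received vehicle by the series' design text. The first set holds TGFbeta1 1 to 3 and control 1 to 3, and the second set holds TGFbeta1 4 to 6 and control 4 to 6. Each set is a separately normalised table of RNA-seq values in FPKM (fragments scaled by transcript length and library total), so that each change below was taken inside a set. The dose and duration of TGFbeta1, and what the vehicle was, are not stated in the labels. Nothing in the labels says that replicates were separate cultures, and a p-value here therefore weighs a difference only against the scatter of these libraries, which may be technical. No counts were used, and the depth is unknown.

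All 6 basal epithelial markers (KRT5, KRT14, KRT17, TP63, CDH3 and EGFR) reached 1 FPKM in both sets, with a summed level of 1844 to 1884 FPKM in TGFbeta1 and 2188 to 2930 FPKM in control libraries of the first set, and of 1513 to 1677 and 1462 to 1697 FPKM in the second. In the first set 1 of them, CDH3, was called higher (log2 change 1.09) and 1, KRT5, lower (-0.64), and 0 were called in the second. The 7 luminal markers (5 tested, of which 3 were called lower in the first set) summed to 270.1 to 498 FPKM with TGFbeta1 and 412 to 501 FPKM in controls of the first set, and to 350.3 to 409 and 312 to 337 FPKM in the second. Of 8 stromal markers, 3 were tested in the first set (COL1A1, DCN and FAP), summing to 55.0 to 57.7 FPKM with TGFbeta1 and 8.26 to 8.59 FPKM in controls, and all 3 were called higher. The second set lists 4 stromal markers, which summed to 17.5 to 21.2 FPKM with TGFbeta1 and 36.1 to 39.8 FPKM in controls, with DCN called lower. PDGFRB, COL1A2, LUM and THY1, also among the 8 stromal markers, are listed in neither set. Of 8 leukocyte and endothelial markers only CD14 and CD68 are listed, and both were called lower in the first set. The part of these markers in the results was not tested, and fewer cells of a type and less RNA per cell cannot be told apart in such samples.

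SMAD7, the inhibitory SMAD gene that TGFbeta signalling induces, stood at 4.87, 3.71 and 4.47 FPKM with TGFbeta1 in the first set, against 0.999, 1.31 and 1.34 FPKM in controls. The second set gave 1.09, 0.748 and 0.894 FPKM with TGFbeta1, against 1.2, 1.15 and 1.02 FPKM in controls, and the groups overlapped. At an adjusted p under 0.05 (limma on log2(FPKM + 1), Benjamini-Hochberg over all genes tested), 20.9% of 10454 genes were called in the first set and 0.321% of 10579 in the second. Of the first-set calls 941 were higher and 1245 lower, and scaling every library to the same FPKM total made this 1164 higher and 855 lower.

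Both laminin chain genes and all 4 membrane protein genes were higher with TGFbeta1 in the first set, and DST was lower. The ratio of mean FPKM was 4.65 for LAMA3, 4.17 for LAMB3, 2.0 for COL17A1, 2.11 for ITGA6, 1.76 for ITGB4 and 1.59 for CD151. DST, the gene of BP230, was at 0.501 times the control level, while PLEC did not pass the test. So 6 of the 8 genes were higher, 1 was lower and 1 was not called, where 9% of all genes tested were called higher and 11.9% lower. The median log2 change of the 8 genes was 0.90, against -0.05 over all genes tested. The groups did not overlap for 7 of the 8 genes, 6 of them higher (18.2% of all genes) and 1 lower (25.1% of all genes). Of the same 8 genes, 0 were called by limma in the second set (1 at an unadjusted p under 0.05), where 0.17% of all genes were called higher and 0.151% lower. The 1 at an unadjusted p under 0.05 was ITGA6, which ranked 834th by p of all 10579 genes tested in that set. The median log2 change of the 8 genes there was 0.08, and 3 did not overlap, 2 of them higher (9.71% of all genes) and 1 lower (9.62% of all genes).

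**Figure D1:**
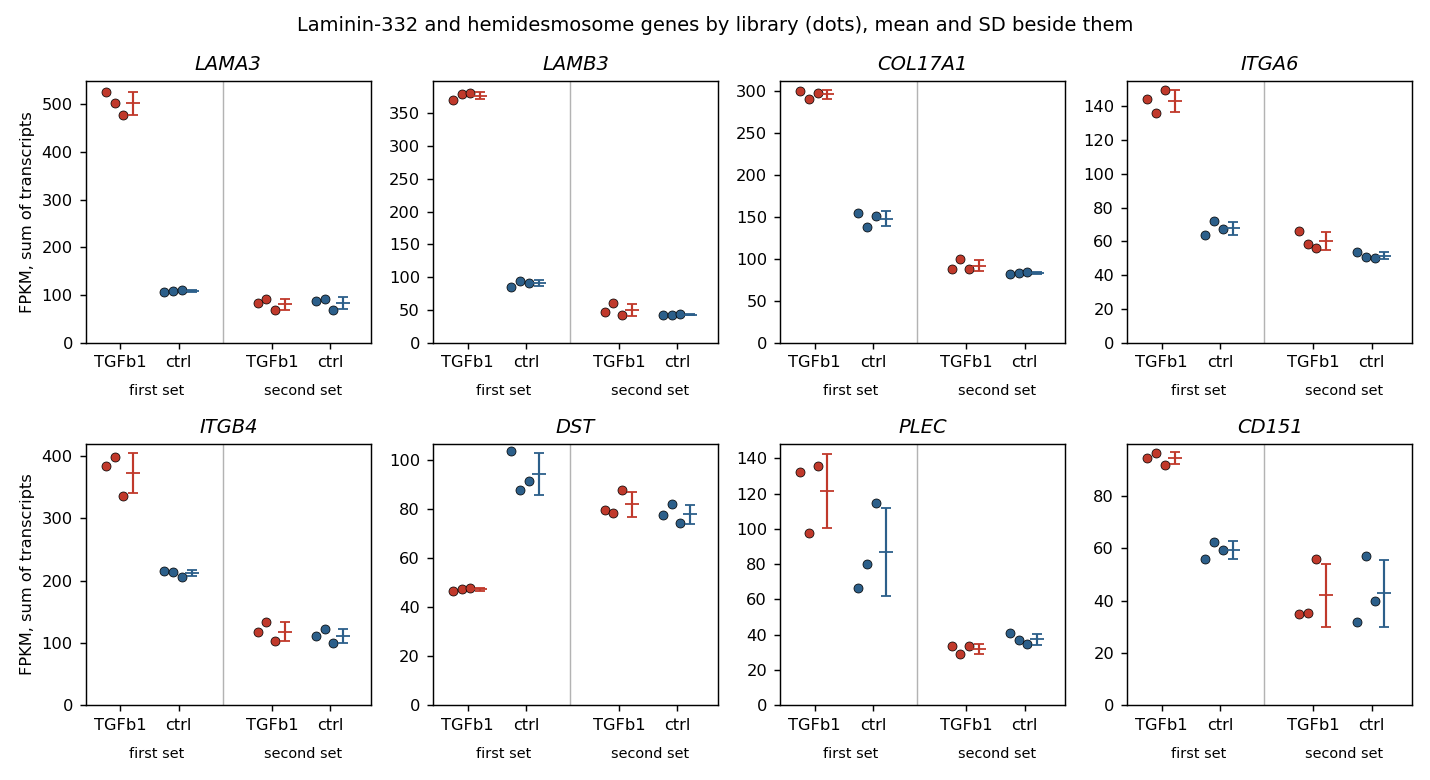
Level of each of the 8 genes (vertical axes, FPKM summed over transcripts) in every library, with TGFbeta1 left of control in each set. Dots are libraries and the bars beside them are the mean and SD of 3. In the first set the dots of TGFbeta1 and control separate for every gene but PLEC, with DST the lower one. In the second set they lie near each other, though without overlap for COL17A1, ITGA6 and PLEC.

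The 2 laminin chains are secreted together as parts of 1 heterotrimer. LAMA3, which encodes the alpha3 chain that integrins bind, lies on the plus strand of chromosome 18 (hg19, chr18:21269407-21535030, ENSG00000053747.15_2). It stood at 526, 502 and 478 FPKM in TGFbeta1 1, 2 and 3, against 107, 107 and 109 FPKM in control 1, 2 and 3. Every TGFbeta1 library was thus above every control, by several times the spread inside either group. The means were 502 ± 23.9 FPKM with TGFbeta1 and 108 ± 1.38 FPKM in controls (SD, n = 3 each), a log2 change of 2.21 (SE 0.06, adjusted p = 4.78e-05, limma). LAMA3 had the 46th highest change of the 10454 genes tested.

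LAMB3, which encodes the beta3 chain, lies on the minus strand of chromosome 1 (hg19, chr1:209788215-209825811, ENSG00000196878.13_2). It stood at 371, 379 and 380.2 FPKM in the TGFbeta1 libraries, against 85.4, 94.4 and 91.3 FPKM in the controls. The groups were again far apart, with a log2 change of 2.05 (SE 0.06, adjusted p = 5.42e-05, limma), the 58th highest. LAMA3 was above LAMB3 in all 6 libraries, and the LAMB3 to LAMA3 ratio was 0.705, 0.755 and 0.796 with TGFbeta1 and 0.798, 0.881 and 0.834 in controls. The ratios did not overlap, but the highest with TGFbeta1 and the lowest in controls nearly met (exact permutation test, two-sided, p = 0.1, the smallest that 3 against 3 allows).

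Neither chain separated the groups of the second set. LAMA3 stood at 82.4, 91.2 and 67.7 FPKM in TGFbeta1 4, 5 and 6, against 87.2, 91.5 and 67.9 FPKM in control 4, 5 and 6 (log2 change -0.03, adjusted p = 0.966, limma). LAMB3 stood at 46.8, 59.7 and 41.9 FPKM with TGFbeta1, against 41.8, 42.3 and 42.8 FPKM in controls (log2 change 0.20, adjusted p = 0.621, limma). TGFbeta1 5 was the highest LAMB3 library of that set, and the other TGFbeta1 libraries lay on or near the controls. The LAMB3 to LAMA3 ratio overlapped there, at 0.568, 0.654 and 0.619 with TGFbeta1 and 0.480, 0.463 and 0.631 in controls (exact permutation test, two-sided, p = 0.3). The sign of the LAMA3 change turned when TGFbeta1 6, control 4 or control 5 was left out (0.09, 0.02 and 0.05).

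Per transcript, 8 of 43 tested transcripts of the 8 genes were called higher and 1 lower in the first set, where 5.54% of all transcripts tested were called, 2.71% higher and 2.83% lower. Most of the LAMA3 signal of the first set came from the short transcript LAMA3-002 (ENST00000269217), whose coding sequence has 1724 codons in GENCODE 29 and which encodes the laminin alpha3A chain. It stood at 518, 488 and 467 FPKM with TGFbeta1, against 105, 104 and 104 FPKM in controls (log2 change 2.22, adjusted p = 0.000295, limma per transcript). It made up 97.2 to 98.5% of the gene's FPKM with TGFbeta1 and 95.4 to 98.2% in controls. The transcripts from the far upstream start, which encode the longer alpha3B form, summed to 0.625, 0.637 and 0.528 FPKM with TGFbeta1 and to 1.32, 2.04 and 4.21 FPKM in controls. That sum, which was not tested, was lower in every TGFbeta1 library than in any control. LAMA3-001 (ENST00000313654), which made up most of it, was tested and not called (log2 change -0.92, adjusted p = 0.237, limma per transcript). In the second set the sum averaged 8.61 FPKM with TGFbeta1 and 6.56 FPKM in controls, and the groups overlapped. LAMA3-002 held only 43.6 to 80.7% of the gene's FPKM with TGFbeta1 and 54.5 to 71.7% in controls of the second set, and the share moved widely within each group. Of the shorter transcripts, LAMA3-012 was also called higher in the first set (log2 change 1.32, adjusted p = 0.0166, limma per transcript).

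For LAMB3, 3 transcripts share 1 coding sequence of 1172 codons and together gave 364, 373 and 372 FPKM with TGFbeta1, against 84.2, 89.1 and 89.9 FPKM in controls of the first set. They were 97.8 to 98.2% of LAMB3 with TGFbeta1 and 94.3 to 98.6% in controls. The most abundant, LAMB3-001 (ENST00000356082), stood at 344, 350.2 and 339 FPKM with TGFbeta1, against 81.4, 75.9 and 87.6 FPKM in controls (log2 change 2.07, adjusted p = 0.000449, limma per transcript). The short LAMB3-004 was called higher as well (log2 change 1.41, adjusted p = 0.0372, limma per transcript). LAMB3-001 made up 43.8 to 46.1% of the gene's FPKM with TGFbeta1 and 42.7 to 46.6% in controls of the second set, although the 3 transcripts of the shared coding sequence were still 93.7 to 95.8% and 93.2 to 94.5%.

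Sequences before the starts of LAMA3 and LAMB3 are shown because these genes had the highest changes, and those of COL17A1, ITGA6 and DST for comparison, since DST moved the other way. They were read from RefSeq on GRCh38.p14, in a window of 250 bases before the RefSeq start nearest to the start of the most abundant transcript. Only bases outside GENCODE 29 exons are printed, 5′ to 3′ on the strand of the gene, and capitals mark a searched word. The words were the AP-1 word TGANTCA, the SMAD word CAGACA or TGTCTG, and the E-box word CAGGTG or CACCTG that ZEB and SNAIL factors bind, each on both strands.

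LAMA3 (chr18:23872770-23872839, plus strand): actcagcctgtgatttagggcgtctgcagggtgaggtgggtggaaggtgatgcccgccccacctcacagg
LAMB3 (chr1:209652467-209652675, minus strand): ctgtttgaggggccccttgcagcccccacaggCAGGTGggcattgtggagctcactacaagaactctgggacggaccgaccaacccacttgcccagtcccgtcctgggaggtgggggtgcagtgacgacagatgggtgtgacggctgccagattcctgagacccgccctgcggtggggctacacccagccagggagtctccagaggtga
COL17A1 (chr10:104085958-104086130, minus strand): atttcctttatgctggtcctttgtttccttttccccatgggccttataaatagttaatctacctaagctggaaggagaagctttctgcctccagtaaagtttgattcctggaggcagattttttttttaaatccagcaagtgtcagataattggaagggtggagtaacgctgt
ITGA6 (chr2:172427471-172427554, plus strand): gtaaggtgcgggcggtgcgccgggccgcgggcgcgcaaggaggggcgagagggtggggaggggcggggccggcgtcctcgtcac
DST (chr6:56642997-56643139, minus strand): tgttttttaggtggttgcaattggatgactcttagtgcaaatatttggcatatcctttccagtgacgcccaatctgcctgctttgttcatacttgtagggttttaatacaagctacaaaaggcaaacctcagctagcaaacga

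The LAMA3 window held 4 of the 5 words found. The GENCODE start of LAMA3-002 lies 180 bases before the RefSeq start, so these words fall inside its first exon, and the stretches around them are shown as 30 bases each.

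LAMA3, AP-1 word (chr18:23872884-23872913, plus strand): ctggcacaggcTGACTCAtgtgtgaagttt
LAMA3, SMAD word, then an E-box word joined to an AP-1 word (chr18:23872931-23872960, plus strand): cgCAGACAgccttcctCACCTGAGTCAggc

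The AP-1 words began 125 and 69 bases before the RefSeq start, the SMAD word 87 bases before it and the E-box word 73 bases before it, the last of these sharing 2 bases with the second AP-1 word. LAMB3 had 1 E-box word, 218 bases before its RefSeq start. None of the words occurred in the windows of COL17A1, ITGA6 or DST. No window of ITGB4, CD151 or PLEC was searched. Among all 35116 RefSeq windows of 250 bases, 6.57% held the AP-1 word, 13.6% a SMAD word and 17.5% an E-box word. A match describes letters only and is no evidence of binding.

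The membrane proteins of the hemidesmosome are collagen XVII and the integrin of the alpha6 and beta4 chains. COL17A1, the collagen XVII gene, lies on the minus strand of chromosome 10 (hg19, chr10:105791044-105845760, ENSG00000065618.17_2). In the first set it stood at 299.8, 290.2 and 298 FPKM in the TGFbeta1 libraries, against 155, 137 and 152 FPKM in the controls. All TGFbeta1 libraries were above all controls, with means of 296 ± 5.06 FPKM with TGFbeta1 and 148 ± 9.16 FPKM in controls (SD, n = 3 each; log2 change 1.0, SE 0.06, adjusted p = 0.000478, limma). Its full-length transcript COL17A1-001 (1497 codons) was also called, at 231, 223 and 252 FPKM with TGFbeta1, against 126, 108 and 119.5 FPKM in controls (log2 change 0.99, adjusted p = 0.0048, limma per transcript). The second set gave COL17A1 levels of 87.3, 99.2 and 88.2 FPKM with TGFbeta1, against 82.3, 82.7 and 84.4 FPKM in controls. These groups did not overlap either, as for 19.3% of all genes in that set, but the log2 change of 0.14 did not pass the test (adjusted p = 0.496, limma).

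ITGA6, the alpha6 chain gene, lies on the plus strand of chromosome 2 (hg19, chr2:173292082-173371010, ENSG00000091409.14_2). Its levels were 144, 136 and 149 FPKM with TGFbeta1, against 63.8, 71.8 and 67.6 FPKM in controls of the first set. The lowest TGFbeta1 library was well above the highest control (log2 change 1.07, SE 0.07, adjusted p = 0.000553, limma). One transcript of 1073 codons, ITGA6-001, carried 86.1 to 90.2% of it with TGFbeta1 and 86.8 to 93.5% in controls, and was called higher (log2 change 1.03, adjusted p = 0.00323, limma per transcript). The second set had ITGA6 at 66.0, 58.2 and 56.0 FPKM with TGFbeta1, against 53.9, 50.4 and 50.2 FPKM in controls. All TGFbeta1 libraries were again the higher ones, and ITGA6 had the only unadjusted p under 0.05 of the 8 genes in that set (unadjusted p = 0.0307, adjusted p = 0.388, log2 change 0.22, limma).

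ITGB4, the beta4 chain gene, which has the long cytoplasmic tail that plectin binds, lies on the plus strand of chromosome 17 (hg19, chr17:73717408-73753899, ENSG00000132470.13_1). It stood at 383, 398 and 336 FPKM with TGFbeta1, against 216, 213 and 206 FPKM in controls of the first set. TGFbeta1 3 was the lowest of its group and still above every control (log2 change 0.81, SE 0.08, adjusted p = 0.00175, limma). That call rests on ITGB4-002 (ENST00000450894), which held 90.9 to 93.8% of the gene's FPKM with TGFbeta1 and 88.4 to 92.5% in controls, and which is listed in the first set alone. It stood at 359.5, 361 and 312 FPKM with TGFbeta1, against 199.6, 188 and 183 FPKM in controls (log2 change 0.85, adjusted p = 0.00672, limma per transcript). With only the transcripts that both tables list, the first-set change was 0.37 and was not called (adjusted p = 0.316, limma). The second set lists ITGB4-007 (ENST00000579662), whose coding sequence of 1752 codons is identical. Taken over this coding sequence, ITGB4 stood at 363, 373 and 321 FPKM with TGFbeta1 and 206, 199 and 197 FPKM in controls of the first set. The same coding sequence stood in the second set at 56.8, 67.4 and 50.1 FPKM with TGFbeta1 and 53.7, 60.5 and 48.1 FPKM in controls, and the groups overlapped. The whole gene did so too, at 117, 134 and 104 FPKM with TGFbeta1 and 112, 123 and 100.03 FPKM in controls (log2 change 0.08, adjusted p = 0.848, limma).

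The ratio of beta4 to alpha6 chain RNA was lower in every TGFbeta1 library of the first set than in any control. It was 2.66, 2.92 and 2.25 with TGFbeta1, against 3.38, 2.97 and 3.05 in controls, without overlap (exact permutation test, two-sided, p = 0.1, the smallest that 3 against 3 allows). The second set's ratios overlapped, at 1.78, 2.3 and 1.851 with TGFbeta1 and 2.07, 2.44 and 1.99 in controls (exact permutation test, p = 0.5).

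CD151 encodes a tetraspanin that sits in the membrane with the laminin-binding integrins. It lies on the plus strand of chromosome 11 (hg19, chr11:832843-838834, ENSG00000177697.17_1). In the first set it stood at 94.6, 96.5 and 91.9 FPKM with TGFbeta1, against 55.9, 62.6 and 59.4 FPKM in controls, with no overlap (log2 change 0.66, SE 0.07, adjusted p = 0.00201, limma). The transcripts of its 253-codon coding sequence summed to 77.8, 84.7 and 81.0 FPKM with TGFbeta1 and 47.2, 55.0 and 55.5 FPKM in controls, and of them ENST00000397421 was called (log2 change 0.75, adjusted p = 0.0155, limma per transcript). Second-set levels of CD151 were 35.0, 35.3 and 56.1 FPKM with TGFbeta1, against 31.8, 56.9 and 39.7 FPKM in controls (log2 change -0.02, adjusted p = 0.988, limma). One high library in each group, TGFbeta1 6 and control 5, set that spread, and in both the transcript CD151-014 was high, at 36.9 and 40.9 FPKM, against 1.94 and 9.47 FPKM in the other TGFbeta1 libraries and 1.67 and 12.6 FPKM in the other controls. Leaving out TGFbeta1 4, TGFbeta1 5 or control 5 turned the sign of the change (0.10, 0.09 and 0.20).

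**Figure D2:**
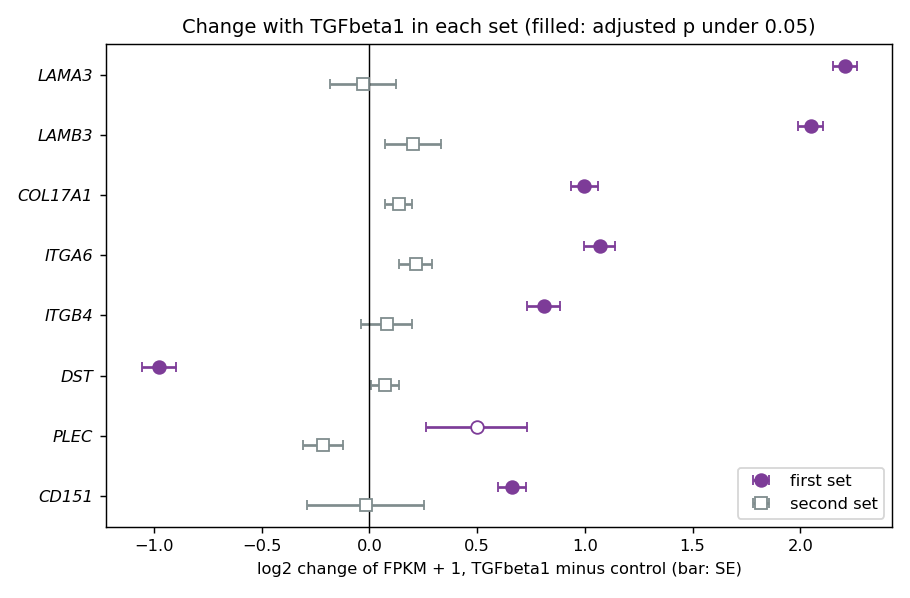
Log2 change of FPKM + 1, TGFbeta1 minus control (horizontal axis, bars are the SE), for the 8 genes in the first set (circles) and the second set (squares). Filled symbols passed an adjusted p under 0.05: LAMA3 at 2.21 and LAMB3 at 2.05 lie farthest right, DST at -0.98 alone lies left among the called genes, and all squares are open and lie between -0.22 and 0.22.

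Of the 2 plakin genes of the inner plaque, DST was lower with TGFbeta1 and PLEC was not called. DST, whose epithelial product BP230 binds keratin, lies on the minus strand of chromosome 6 (hg19, chr6:56322785-56819426, ENSG00000151914.19_2). In the first set DST stood at 46.4, 47.6 and 47.8 FPKM with TGFbeta1, against 104, 87.7 and 91.4 FPKM in controls. Every TGFbeta1 library was lower than every control, and the TGFbeta1 libraries lay within a narrow range (means 47.3 ± 0.706 FPKM with TGFbeta1 and 94.3 ± 8.42 FPKM in controls, SD, n = 3 each). The log2 change was -0.98 (SE 0.08, adjusted p = 0.00107, limma), the 406th lowest of 10454. Second-set levels of DST were 79.6, 78.5 and 87.8 FPKM with TGFbeta1, against 77.5, 81.9 and 74.2 FPKM in controls, and the groups overlapped (log2 change 0.07, adjusted p = 0.740, limma).

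PLEC, the gene of plectin, which binds the beta4 chain and several kinds of filament, lies on the minus strand of chromosome 8 (hg19, chr8:144989315-145050902, ENSG00000178209.14_2). It stood at 132, 97.4 and 135 FPKM with TGFbeta1, against 66.4, 80.1 and 115 FPKM in controls of the first set. TGFbeta1 2 was below control 3, so that the groups overlapped, and the log2 change of 0.50 did not pass the test (SE 0.24, adjusted p = 0.196, limma). Its transcripts varied widely between replicates: PLEC-002 was at 49.0, 5.36 and 11.2 FPKM with TGFbeta1 and 6.34, 30.3 and 13.8 FPKM in controls. None of its 8 tested transcripts was called. Second-set levels of PLEC were 33.7, 28.8 and 33.7 FPKM with TGFbeta1, against 40.8, 36.8 and 34.6 FPKM in controls, which were all the higher ones (log2 change -0.22, adjusted p = 0.473, limma).

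DST has many products from several starts, and the transcript called lower was that of the epithelial form. DST-010 (ENST00000370765, named DST-205 in the second table) has 24 exons and 2649 codons in GENCODE 29 and encodes BP230. It stood at 24.6, 24.6 and 23.8 FPKM with TGFbeta1, against 67.8, 57.4 and 56.7 FPKM in controls of the first set (log2 change -1.28, SE 0.10, adjusted p = 0.00381, limma per transcript). Its share of the gene's FPKM was 49.7 to 53.0% with TGFbeta1 and 62.0 to 65.5% in controls. The rest of the gene, which was not tested, summed to 21.9, 22.9 and 24.0 FPKM with TGFbeta1 and 36.0, 30.3 and 34.8 FPKM in controls, also without overlap. The second set gave DST-010 levels of 67.7, 65.5 and 66.2 FPKM with TGFbeta1, against 65.6, 65.9 and 63.1 FPKM in controls (log2 change 0.03, adjusted p = 0.897, limma per transcript).

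The DST transcripts can be grouped by where they start. On hg19, 4 transcripts, DST-010 among them, start between positions 56507586 and 56507794 of chromosome 6, and together they stood at 37.1, 40.2 and 39.3 FPKM with TGFbeta1, against 90.5, 76.6 and 79.4 FPKM in controls. The 6 transcripts that start between 56707951 and 56716749, toward the upstream end of the gene, stood at 5.56, 3.64 and 3.42 FPKM with TGFbeta1 and 7.45, 3.17 and 1.92 FPKM in controls, and these groups overlapped. Among the 4, DST-015 stood at 6.94, 7.94 and 7.33 FPKM with TGFbeta1, against 21.3, 12.9 and 14.1 FPKM in controls, and just missed the threshold (adjusted p = 0.0544, limma per transcript). DST-005, which shares that start region but has 5171 codons, overlapped between the groups, at 5.39, 7.48 and 7.85 FPKM with TGFbeta1 and 1.22, 6.26 and 8.11 FPKM in controls.

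**Figure D3:**
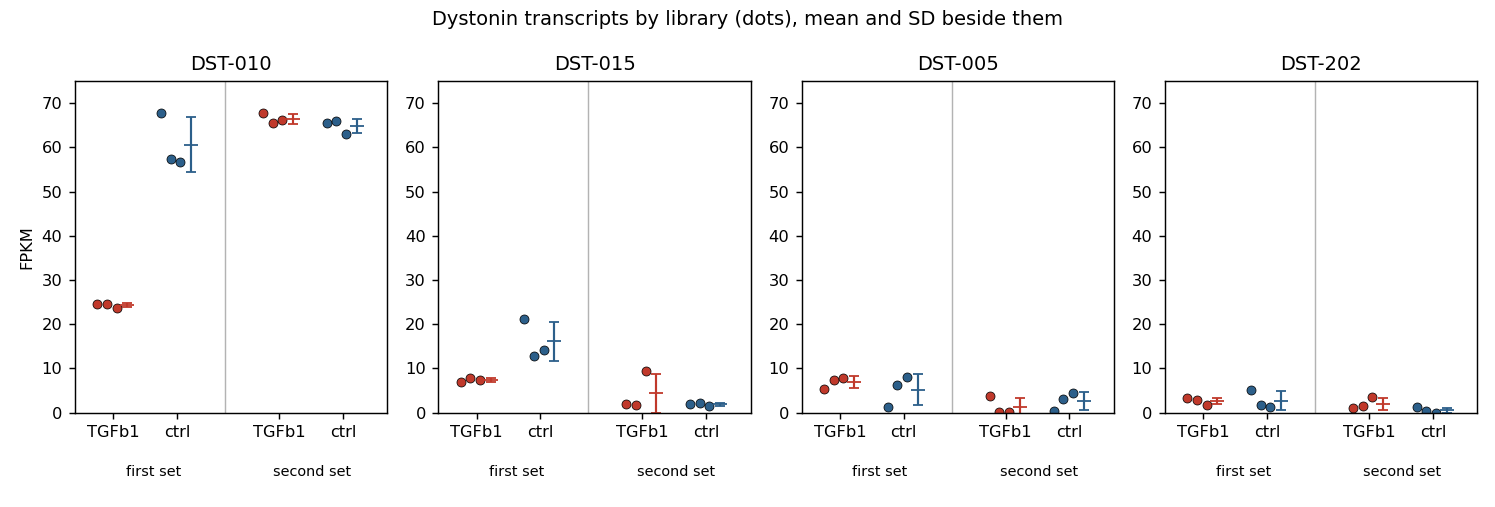
FPKM (vertical axes) of 4 dystonin transcripts in every library, with TGFbeta1 left of control in each set. Dots are libraries and the bars are mean and SD of 3. DST-010 lies at 23.8 to 24.6 FPKM with TGFbeta1 and 56.7 to 67.8 FPKM in controls of the first set, while in the second set both groups lie between 63.1 and 67.7 FPKM, and the groups overlap in both sets for DST-005 and for the transcript with the upstream start.

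Ratios between the genes show these proportions at the RNA level. The DST to LAMA3 ratio lay between 0.0884 and 0.09997 with TGFbeta1 and between 0.819 and 0.970 in controls of the first set. The second-set ratios of DST to LAMA3 overlapped, at 0.861 to 1.30 with TGFbeta1 and 0.889 to 1.09 in controls (exact permutation test, two-sided, p = 0.7). The DST to PLEC ratio was 0.352, 0.488 and 0.353 with TGFbeta1, against 1.56, 1.09 and 0.797 in controls, also without overlap, although PLEC itself did not pass the test. Both first-set ratios had an exact two-sided permutation p = 0.1, the smallest that 3 against 3 allows. The DST to PLEC ratio of the second set was higher with TGFbeta1, also without overlap (2.36, 2.73 and 2.6 with TGFbeta1 and 1.90, 2.22 and 2.14 in controls, exact permutation p = 0.1). The FPKM of all 8 genes together summed to 1996, 1947 and 1917 with TGFbeta1, against 853, 854 and 892 in controls of the first set. The second-set sums were 548, 585 and 535 FPKM with TGFbeta1 and 527, 566 and 494 FPKM in controls.

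The order of levels among the 8 genes, per transcript length, differed between the groups of the first set. With TGFbeta1, LAMA3 was highest and DST lowest, with LAMB3 and ITGB4 next to LAMA3 and overlapping each other. In controls ITGB4 was highest, followed by COL17A1 and LAMA3, while DST, LAMB3, PLEC and ITGA6 followed with each overlapping the next, and CD151 was lowest. By mean, ITGB4 was highest and PLEC lowest in both groups of the second set. In controls, however, the range of CD151 (31.8 to 56.9 FPKM) took in that of PLEC (34.6 to 40.8 FPKM). COL17A1, DST and LAMA3 came next to ITGB4: each overlapped the next in order with TGFbeta1 (COL17A1, DST, LAMA3) and in controls (COL17A1, LAMA3, DST), while COL17A1 lay above DST without overlap in controls.

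The difference between the sets was tested directly for each gene as the log2 change of the first set minus that of the second, across all 12 libraries. It passed for 6 of the 8 genes, 5 of them positive and 1 negative, where 13.6% of 10571 genes passed, 6.04% positive and 7.54% negative (639 and 797 genes, against 778 and 541 with an equal sum of FPKM). LAMA3 (2.24, SE 0.18, adjusted p = 2.39e-05) and LAMB3 (1.84, SE 0.15, adjusted p = 3.01e-05, limma) differed most, and DST differed in the other direction (-1.05, SE 0.11, adjusted p = 0.000151). COL17A1, ITGA6 and ITGB4 differed by 0.86, 0.85 and 0.73 (adjusted p = 0.000218, 0.000608 and 0.0101, limma). For ITGB4 the difference was 0.29 and was not called with only the transcripts that both tables list (adjusted p = 0.564). PLEC differed by 0.71 (adjusted p = 0.116) and CD151 by 0.68 (adjusted p = 0.180), and neither passed. Without control 3, PLEC differed by 0.93 and was called (adjusted p = 0.0176). The sets also differ in their normalisation and in the transcripts listed, and these cannot be told apart from other differences between them.

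The authors' deposited table for the second set gives a q-value for each transcript. In the authors' deposited table, 0 of the 48 transcripts of the 8 genes had a q under 0.05 (1 had a p under 0.05), and the smallest q was 0.627. The share of all transcripts with such a q or p was not counted, so these counts show nothing particular to the 8 genes. Of the 48 transcripts, 38 were tested here per transcript by limma and 0 were called, where 0.118% of all transcripts tested in that set were called higher and 0.103% lower.

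Other genes around the hemidesmosome were described by lists drawn from general knowledge, but with earlier results of these data known. Their first-set counts stand beside 9% of all genes called higher, 11.9% lower and 20.9% in either direction. Given that choice, the counts describe the lists and are no test of them. Among 5 tested genes of other laminin chains in the first set, only LAMB1, the beta chain gene of several other laminins, was called. It averaged 155 ± 14.3 FPKM with TGFbeta1 and 93.5 ± 8.57 FPKM in controls (SD, n = 3 each; log2 change 0.72, adjusted p = 0.00725, limma). LAMA4 (log2 change 0.26, adjusted p = 0.156) and LAMB2 (0.16, adjusted p = 0.228) came next by p, and the list's median log2 change was 0.26. Of 8 tested basement membrane genes 7 were higher and 0 lower, with a median of 0.64. They included both chains of the main collagen IV, COL4A1 at 30.9 ± 0.157 FPKM with TGFbeta1 and 2.92 ± 0.675 FPKM in controls, and COL4A2 at 56.3 ± 0.705 and 8.59 ± 0.403 FPKM (log2 changes 3.04 and 2.58). COL7A1, the collagen of the anchoring fibrils that laminin-332 holds, averaged 44.5 ± 2.77 FPKM with TGFbeta1 and 7.57 ± 0.948 FPKM in controls (log2 change 2.41, adjusted p = 0.000152, limma).

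Among 7 tested genes of other laminin receptors or their partners, 3 were higher and 1 was lower in the first set, with a median of 0.35. ITGA3, whose chain pairs with that of ITGB1 to bind laminin-332, averaged 198 ± 11.2 FPKM with TGFbeta1 and 155 ± 4.67 FPKM in controls (log2 change 0.35, adjusted p = 0.0148, limma; chosen after its value was seen). ITGB1 and the collagen and laminin receptor gene ITGA2 were the other higher genes (log2 changes 0.95 and 1.22). BCAM, a receptor of laminin alpha5 chains, was the lower one, at 0.793, 0.952 and 0.712 FPKM with TGFbeta1 and 2.0, 2.61 and 2.11 FPKM in controls (log2 change -0.83, adjusted p = 0.00620, limma). The laminin-332 processing list holds genes of proteases that cut laminin-332 chains, and also the plasminogen activator genes PLAT and PLAU. Of its 6 tested genes, 4 were higher and 0 lower, with a median of 1.28. Of these, MMP2 averaged 20.5 ± 0.446 FPKM with TGFbeta1 and 2.18 ± 0.257 FPKM in controls (log2 change 2.76). MMP14, which activates MMP2 at the cell surface, averaged 336 ± 16.6 FPKM with TGFbeta1 and 116 ± 6.80 FPKM in controls (log2 change 1.53), and the plasminogen activator gene PLAU had a log2 change of 3.23.

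Keratin and plakin genes were more often lower than higher. Of 12 tested genes of keratins, plakins and vimentin 6 were lower and 2 higher in the first set, with a median of -0.67. PPL, the gene of periplakin, stood at 2.75, 2.57 and 2.73 FPKM with TGFbeta1, against 25.8, 21.2 and 21.4 FPKM in controls (log2 change -2.69). The keratin genes KRT15 (2.61 ± 0.292 FPKM with TGFbeta1 and 81.8 ± 16.5 FPKM in controls, log2 change -4.50) and KRT16 (32.6 ± 6.62 and 322 ± 26.3 FPKM, log2 change -3.28) were lower by more. Among the plakin genes outside the hemidesmosome, which were picked after their values were seen, those of the desmosome or cornified envelope, DSP (log2 change -0.69) and EVPL (-1.59), were also lower, as DST was. MACF1, a plakin gene of the cytoskeleton, did not pass (log2 change 0.21, adjusted p = 0.247, limma). None of the 10 tested genes of other tetraspanins was called by limma (1 at an unadjusted p under 0.05), which in a list this short is not far from the 20.9% called among all genes. The smallest p-values were those of TSPAN1 (-0.64, adjusted p = 0.0778), CD9 (-0.15, adjusted p = 0.154) and TSPAN6 (-0.32, adjusted p = 0.305, limma), and the list's median log2 change was -0.04.

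Of 16 focal adhesion genes, which serve the actin-linked contacts, 5 were higher and 0 lower, with a median of 0.18, among them PPFIBP1 (0.54), FERMT1 (1.06) and FERMT2 (0.74). This count was 2, 3 and 2 without TGFbeta1 1, 2 and 3, and 1 without control 1 or control 2. None of the 7 lists had a called gene in the second set by limma, although 13 of their 61 tested genes had an unadjusted p under 0.05. ITGA6, at an unadjusted p of 0.0307, ranked 834th by p of all 10579 genes tested in that set, and PLEC, at 0.0604, ranked 1349th (limma). At least 834 and fewer than 1349 of the 10579 genes thus had an unadjusted p under 0.05. The share of 13 in 61 was above that of all genes, but this difference was not tested, and the lists were chosen with earlier results known. The 13 genes lay in both directions. KRT6B, a keratin gene, had the smallest p of them and a positive change (log2 change 0.50, adjusted p = 0.0529, limma), as had the plasminogen activator genes PLAU (0.61, adjusted p = 0.234) and PLAT (0.60, adjusted p = 0.286). COL4A2, COL4A1 and LAMB1 had log2 changes of -0.52, -0.57 and -0.24 (adjusted p = 0.0786, 0.124 and 0.185, limma). KRT6B and PLAT were named after their values were seen.

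**Figure D4:**
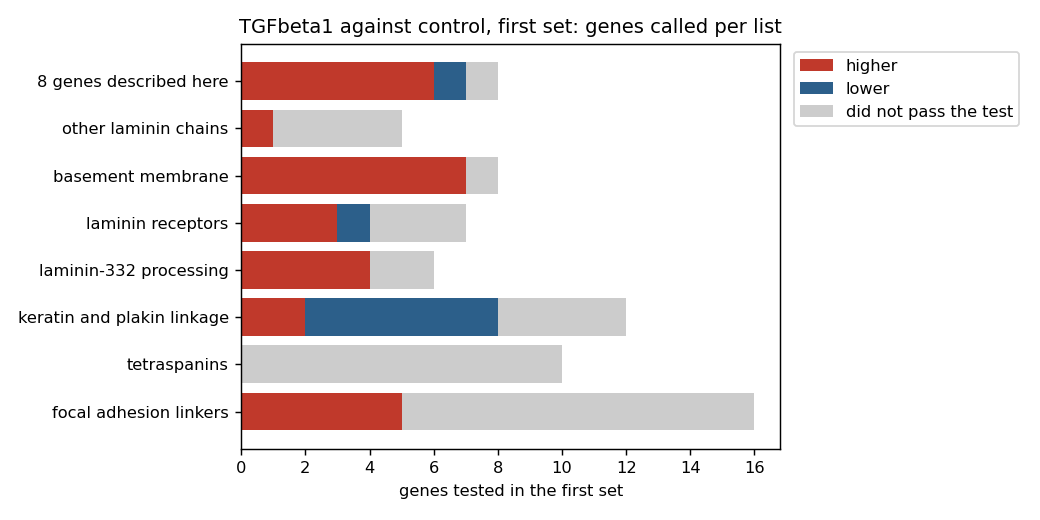
Number of genes tested in the first set (horizontal axis) for the 8 genes and each of 7 lists, split into those higher with TGFbeta1, lower with TGFbeta1, and not passing an adjusted p under 0.05. Higher genes prevail among the 8 genes (6), basement membrane (7 of 8) and laminin-332 processing (4 of 6), lower genes among keratins and plakins (6 of 12), and 0 of 10 other tetraspanins were called, where 20.9% of all genes were.

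Genes whose pattern was most like that of LAMB3 were found by Pearson correlation over the 12 libraries, on log2(FPKM + 1) centred in each set, among 6592 genes with a mean of at least 5 FPKM in both sets. LGALS1, the gene of galectin-1, was first (r = 0.990), followed by FAM114A1 (r = 0.988) and COL17A1 (r = 0.988), then P4HA2, which encodes a subunit of the collagen prolyl hydroxylase (r = 0.984). LAMA3 ranked 9th (r = 0.982), ITGA6 30th (r = 0.971) and ITGB4 64th (r = 0.955). CD151 and PLEC lay lower, at r = 0.654 and r = 0.572, and DST ranked 6570th at r = -0.973. These values describe the libraries, which share 2 normalisations and 1 treatment contrast, and carry no test. LGALS1 averaged 839.6 ± 9.10 FPKM with TGFbeta1 and 487 ± 13.2 FPKM in controls of the first set, and in the second set 380.0 FPKM with TGFbeta1 and 362 FPKM in controls (SD, n = 3 each, where given).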

How the data were processed

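The 12 RNA-seq libraries are of MCF-12A cells, from Trizol-extracted RNA prepared by an Illumina protocol, per the labels' protocols. Per the submitters' processing notes, FastQC, cutadapt, HISAT2 2.0.4, StringTie 1.2.3 and hg19 were used; strand, settings and annotation release: not given in the sources used here. FPKM values were deposited per protein-coding transcript in 2 tables. No header of the first table gives a unit, so its FPKM scale is an inference from the values. The second set's deposited columns include means per group on a log2 scale, log2 fold changes and linear fold changes, besides p-values with q-values; per the file headers these are the authors' own comparison. The transcripts of lowest mean level stood at 0.025 and 0.250 FPKM in the first and second table, so that low transcripts were filtered differently before deposit, and 47 transcripts of the 8 genes are in both tables. FPKM shifts with the library total and with how reads are divided between overlapping transcripts, and antisense reads cannot be told apart without strand.

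Transcripts were summed per gene, with identifiers matched after removing lift-over suffixes, and genes with a mean of at least 1 FPKM were tested on log2(FPKM + 1) using limma 3.58.1 (R 4.3.3), with a mean-variance trend, Benjamini-Hochberg adjustment over all genes or transcripts tested, and an adjusted p under 0.05, two-sided. This scale understates the change of low genes. The fits were made within each set, and over all 12 libraries for the interaction of set and TGFbeta1. The procedure was also run on simulated data whose scatter was drawn separately for each gene and library. That run held no effects shared within a library or culture, and no result above rests on it. All 73 transcripts of the 8 genes were found in GENCODE 29 by identifier, which gave exons and codons. RefSeq windows were available for 5 of the 8 genes, with chromosome 8, and so PLEC, left out. All 5 matched within 200 bases. Tables were made with Python 3.11.15, pandas 2.3.3, numpy 2.4.6 and scipy 1.17.1, and figures with matplotlib 3.10.9.

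The 8 genes, the lists and the tests were chosen with earlier results of these data known. Named were all 8 genes, their called transcripts and those of their 3 most abundant in a set that bear on a result, the rest being given as counts, the 3 genes of each list with the smallest p in the first set, and the 5 genes most like LAMB3, of which 1 is not reported here. Alternatives were a pseudocount of 0.1, other filters and scalings, limma without trend or robust, a log2 change of at least 1, only shared transcripts, the replicate number as a block, and leaving out each library; those per transcript were added after seeing the data.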

Additional observations from a re-analysis of the deposited data

Results flagged for a closer look

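For 6 of the 8 genes the change with TGFbeta1 differed between the 2 sets by the interaction test (limma, adjusted p under 0.05). The first-set change minus the second-set change, on the log2 scale, was 2.24 for LAMA3, 1.84 for LAMB3, 0.86 for COL17A1, 0.85 for ITGA6, 0.73 for ITGB4 and -1.05 for DST. ITGB4 differed by 0.29 and was not called when only transcripts of both tables were summed (adjusted p = 0.564). What sets the 2 experiments apart is not stated in the labels and was not tested.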

How the results depend on the processing

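All 7 first-set calls kept their direction, and their side of the threshold, under the other pseudocount, filters, scalings, variance models and without each library, with the exceptions that follow. With a log2 change of at least 1 as a further condition 3 of 7 genes were called in the first set, and 3 of 6 for the difference between the sets. ITGB4 lost its call with shared transcripts only, as given above.

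Over all genes, calls in the first set numbered 2186, against 1211 with a replicate block, 533 with a log2 change of at least 1, and 1354 to 2030 without 1 library. In the second set they numbered 34, against 17 with an equal sum of FPKM, 20 without trend, 0 with a replicate block (1134 at an unadjusted p under 0.05), 14 with a log2 change of at least 1, and 0 to 23 without 1 library. The difference between the sets was called for 1436 genes, against 561 with a log2 change of at least 1 and 1206 to 1502 without 1 library. Per transcript, the first set had 1003 calls, against 655 without a filter, 45 with a replicate block, 587 with a log2 change of at least 1, and 406 to 784 without 1 library. The second set had 45, against 27 with a pseudocount of 0.1, 27 with a minimum of 5 FPKM, 1 with a replicate block, and 35 to 45 without 1 library.

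With an equal sum of FPKM the first-set calls were 1164 higher and 855 lower, against 941 and 1245, those for the difference 778 and 541, against 639 and 797, and those per transcript 573 and 388, against 490 and 513. In the second set, changes that did not pass turned sign without 1 library for LAMA3 (range -0.16 to 0.088), ITGB4 (-0.012 without TGFbeta1 5, to 0.17) and CD151 (-0.24 to 0.20).

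Replicate numbers share nothing the labels state. Deviations of same-numbered libraries correlated at 0.00746 to 0.0457 across genes, under the 0.1 chosen here as the least for a pairing. Those of different-numbered libraries correlated at -0.0534 to 0.0137. With the block, 7, 0 and 6 of the 8 genes were called in the first set, the second set and for the difference, as without it. Depth is unknown, so no limit on low values can be given.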
